A study of Mus musculus with 6 samples.

Results

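The numbered Zfp genes are the mouse loci whose symbol is Zfp followed by a number, with Zfp36 left out because it encodes an RNA-binding protein of another zinc finger class. Of 366 such symbols at 387 loci, 332 had at least 60 raw reads summed over the 6 libraries, out of 53445 loci in the table, and where a symbol was listed at several loci the longest was kept. The members were thus chosen by symbol and selected on total reads, and the difference between genotypes was not part of the rule. Just inside the limit were Zfp354a, with 76 reads, and Zfp711, with 79 reads, and just outside it were Zfp957, with 50 reads, and Zfp112, with 48 reads.

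The RNA came from LSK cells (lineage-negative, Sca-1+, c-Kit+ bone marrow cells, the gate that holds haematopoietic stem cells and early progenitors), 1 library for each of 3 OgaVav-Cre and 3 wildtype mice. All were female C57BL/6 mice of about 12 weeks. OgaVav-Cre mice carry the floxed Oga allele (listed as Mgea5) and the Vav-iCre transgene, which is active in the blood lineages, so that the enzyme that removes O-GlcNAc from proteins is lost in haematopoietic cells. The comparison addresses how transcription in these cells differs when O-GlcNAc cannot be removed.

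Most Zfp proteins bind DNA through tandem C2H2 fingers, loops held by a zinc ion between a pair of cysteines and a pair of histidines. Many of them also carry a KRAB domain, which recruits the co-repressor Trim28 and through it the histone methyltransferase Setdb1, and such proteins are best known for silencing retrotransposons and for keeping imprinted regions methylated. The genes lie in clusters of related copies made by tandem duplication.

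The first finger of 3 neighbouring genes on chromosome 11 shows both the shared frame and the difference between copies, because the results return to these genes. The coding sequences were read on NCBIM37 (the assembly also called mm9), with the codons of the zinc-binding cysteines and histidines in capitals.
Zfp354a: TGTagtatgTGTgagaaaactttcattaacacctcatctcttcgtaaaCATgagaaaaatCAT
Zfp354b: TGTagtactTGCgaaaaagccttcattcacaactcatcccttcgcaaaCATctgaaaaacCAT
Zfp354c: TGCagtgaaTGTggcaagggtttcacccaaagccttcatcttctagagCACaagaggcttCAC
They lie at chr11:50883024-50883086 on the plus strand, in exon 4 of 4, at chr11:50736915-50736977 on the minus strand, in exon 4 of 4, and at chr11:50629029-50629091 on the minus strand, in exon 5 of 5. Zfp354a and Zfp354b were identical at 50 of these 63 bases, whereas Zfp354a and Zfp354c shared 33 and Zfp354b and Zfp354c shared 30. Over the whole coding sequence, 513 of the 1673 stretches of 50 bases in Zfp354a also occurred in Zfp354b and 0 occurred in Zfp354c, so part of the 50-base reads of the first pair cannot be assigned to 1 gene.

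Total reads per library ranged from 25190298 to 27064389 in OgaVav-Cre and from 19318056 to 21684561 in wildtype, and 0.827 to 0.975% of them in OgaVav-Cre and 1.07 to 1.16% in wildtype lay on the numbered Zfp genes. Mgea5, the targeted gene, had 104, 109 and 110 reads in the OgaVav-Cre libraries and 3164, 2970 and 2736 in the wildtype libraries. Kit was present in every library, at 251 to 542 CPM (counts scaled to library size with edgeR's TMM factors) in OgaVav-Cre and 372 to 602 in wildtype, and Ly6a (Sca-1) at 100 to 218 and 42.3 to 122 CPM. Kit and Ly6a belong to a list of 16 LSK stem and progenitor markers, of which 11 were lower and 5 higher. The median log2 fold change of these 16 markers, OgaVav-Cre over wildtype, was -0.25. Summed, they reached 1969 to 3656 CPM in OgaVav-Cre and 2627 to 4100 CPM in wildtype. By edgeR, 1 was lower and 0 higher at an unadjusted p below 0.05, beside 6.27 and 4.38% of all loci. Plasma cell markers varied widely within each genotype. Their 11 measured genes summed to 1834 to 12570 CPM in OgaVav-Cre against 1896 to 8252 CPM in wildtype, all 11 were higher in OgaVav-Cre, 0 of them at an unadjusted p below 0.05, and none was at 0. B cell markers (6 of 10 lower) summed to 299 to 1481 and 278 to 1027 CPM. T and NK cell markers (8 of 10 higher) summed to 65.1 to 205 and 62.4 to 124 CPM. Of the T and NK cell markers, 2 were higher and 1 lower at an unadjusted p below 0.05, beside 4.38 and 6.27% of all loci. Erythroid markers (5 of 10 lower) summed to 370 to 2589 and 560 to 860 CPM, and granulocyte and monocyte markers (4 of 10 lower) to 563 to 1714 and 954 to 1117 CPM, with Ly6g at 0 in wildtype replicate 1. The part of other cell types in the results below was not tested. In sorted bulk RNA, fewer cells that express a gene and less RNA per cell cannot be told apart.

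As a group, the numbered Zfp genes had lower levels in OgaVav-Cre than in wildtype LSK cells, by a small amount for most of them. The fitted log2 fold change of OgaVav-Cre over wildtype was below 0 for 257 of 332 members (77.4%), against 49.5% of the 22032 loci tested. Its median was -0.19 over the members and 0.004 over all loci, and the middle range of the members, from the 25th to the 75th percentile, ran from -0.38 to -0.019, against -0.26 to 0.22 for all loci. For 273 members it lay between -0.5 and 0.5, for 13 it was under -1 and for 2, Zfp462 and Zfp534, it was over 1.

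No member passed the test. By edgeR's quasi-likelihood test, with the study's cutoffs of 0.05 on the adjusted p and 1 on the log2 scale, 0 of 332 members were called, against a background of 0.0272% of loci called lower and 0.00454% called higher, and the smallest adjusted p of a member was 0.254. At an unadjusted p below 0.05, 61 members were lower and 2 higher, that is 18.4 and 0.602% of them, beside 6.27 and 4.38% of all loci. The 3 OgaVav-Cre libraries were all below the 3 wildtype libraries for 83 members and all above them for 6, 25 and 1.81%, beside 9.97 and 7.5% of all loci, and the genotypes overlapped for the other 243. DESeq2's Wald test, which the study used, called 5 members lower and 0 higher (background 0.343 and 0.15%), namely Zfp37, Zfp583, Zfp661, Zfp354b and Zfp354a. Of these, Zfp37, Zfp354b and Zfp354a reached 10 reads in wildtype libraries alone and so passed the filters through the genotype in which they were high, and the 329 members that reached 10 reads in both genotypes held 2 of the calls, Zfp583 and Zfp661. Among these 329, 58 were lower at an unadjusted p below 0.05 in edgeR, 80 were lower without overlap and the median was -0.19. Both limma-voom and limma on RPKM called 0. At an unadjusted p below 0.05, DESeq2 had 51 members lower and 3 higher, beside 3.63 and 3.09% of the loci it tested. The number at an unadjusted p below 0.05 depends on single libraries, and was 28 without OgaVav-Cre replicate 1 (all loci 4.08%), 27 without wildtype replicate 2 (3.89%) and 35 without wildtype replicate 3 (3.20%). Without TMM factors, 293 members were lower beside 63.9% of all loci, and the median over all loci itself moved to -0.11. Relative to the median of all loci, the members' median was then -0.19, as it was (-0.20) with TMM.

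**Figure D1:**
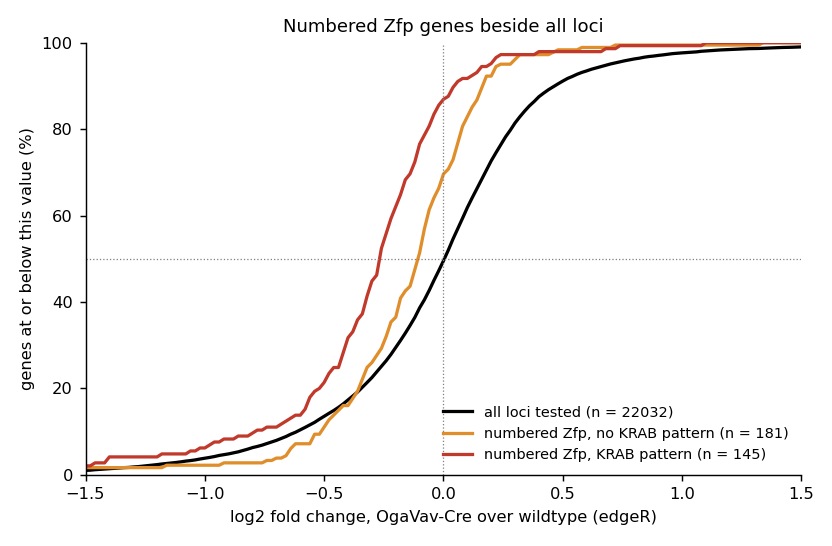
Cumulative share of genes (y axis, percent) at or below each log2 fold change of OgaVav-Cre over wildtype (x axis, edgeR) for 22032 loci and for the numbered Zfp genes with and without a KRAB pattern. Both Zfp curves lie to the left of the curve of all loci around its middle, with medians of -0.26 and -0.11 beside 0.004.

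Members with a KRAB pattern lay further below wildtype than those without. A pattern of conserved KRAB residues was found in the translated GENCODE transcripts of 145 of the 326 members that could be matched. Of these 145, 126 were lower and 19 higher, with a median log2 fold change of -0.26. Of the 181 members without the pattern, 126 were lower and 55 higher, with a median of -0.11. At an unadjusted p below 0.05, 32 of the 145 were lower and 1 higher (all loci 6.27 and 4.38%). Of the 181, 27 were lower and 1 higher at that p. All OgaVav-Cre libraries lay below all wildtype libraries for 48 of the 145 and 33 of the 181 (all loci 9.97%). They lay above them for 2 and 4 (all loci 7.5%). The pattern misses some KRAB proteins, so the second group is not free of them, and the difference between the groups is given without a test, since genes are not replicates. The number of fingers, 10 in the median and up to 36, went with it. The median log2 fold change was -0.046 for 58 members with 1 to 5 fingers, -0.20 for 108 with 6 to 10, -0.26 for 101 with 11 to 15 and -0.24 for 51 with more, and -0.013 for 8 in which no finger matched.

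The difference was present in each library. The median over the members of the log2 level relative to the wildtype mean was -0.24, -0.12 and -0.18 in the OgaVav-Cre libraries, replicates 1 to 3, against -0.067, 0.084 and -0.010 in wildtype. For members with a KRAB pattern the same medians were -0.36, -0.16 and -0.22 against -0.074, 0.14 and -0.044, and the genotypes did not overlap on either measure. For members without the pattern they were -0.18, -0.065 and -0.14 against -0.054, 0.036 and 0.013. There the separation was narrow, between OgaVav-Cre replicate 2 and wildtype replicate 1. The summed level of all members was 9242, 9918 and 9626 CPM in OgaVav-Cre against 10375, 11018 and 10596 CPM in wildtype. OgaVav-Cre replicate 1, lowest on these measures, had the largest share of reads on Ighm and Igj (7.71%), while OgaVav-Cre replicate 3, also low, had the smallest (0.887%), and their part in the difference was not tested.

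**Figure D2:**
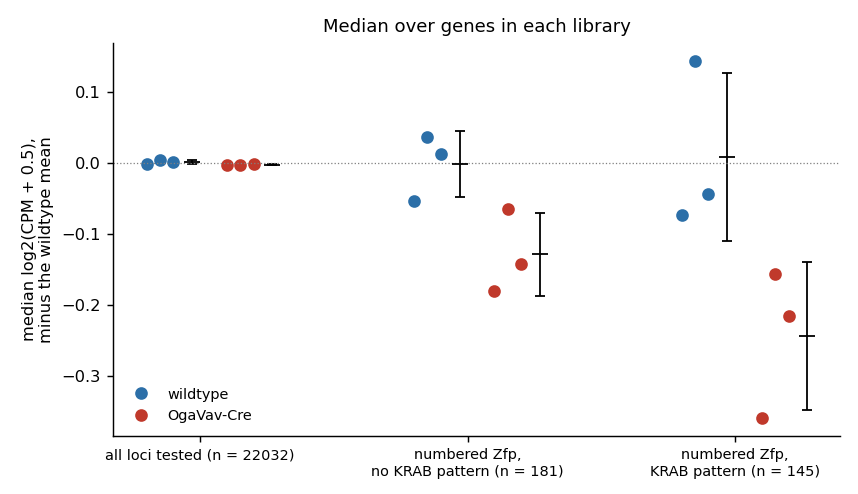
Median over genes of log2(CPM + 0.5) minus the wildtype mean of each gene (y axis) in each of the 6 libraries (points), for all loci tested and for numbered Zfp genes without and with a KRAB pattern, with mean and SD over 3 libraries in black. All OgaVav-Cre points of both Zfp groups lie below the wildtype points, from -0.36 to -0.16 for the KRAB group, while the 6 libraries lie together for all loci. Without the KRAB pattern the separation is narrow, with the highest OgaVav-Cre point at -0.065 and the lowest wildtype point at -0.054.

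The 8 members with the smallest p among those lower without overlap were Zfp354b, Zfp826, Zfp354a, Zfp329, Zfp661, Zfp37, Zfp931 and Zfp583. Zfp354b (chr11:50735288-50745137, minus strand), a KRAB gene with 13 fingers, had 5, 5 and 6 reads in the OgaVav-Cre libraries and 21, 38 and 34 in the wildtype libraries. All OgaVav-Cre values were far below all wildtype values. The mean was 0.213 ± 0.0130 CPM (SD, n = 3) against 1.46 ± 0.494, a log2 fold change of -2.75 (SE 0.477, adjusted p = 0.254 in edgeR and 0.0227 in DESeq2). Pooled, the OgaVav-Cre reads amounted to 14.7% of the wildtype level, with an exact 95% interval from 8.07 to 25.1% that covers counting error only.

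Zfp354a (chr11:50872759-50886301, plus strand), first isolated as a kidney KRAB repressor, had 0, 2 and 0 reads in OgaVav-Cre against 12, 29 and 33 in wildtype. No OgaVav-Cre library exceeded 2 reads, and every wildtype library lay above the floor of 3. The 2 pooled reads against 74 amounted to 2.31% of the wildtype level, with an exact interval from 0.274 to 8.64%. Of the 1673 coding stretches of 50 bases in Zfp354a, 513 also occur in Zfp354b, so the values of the pair may not be independent. How reads that map to several places were counted is not stated in the sources used here. The fitted log2 fold change, -5.18 (SE 0.973, adjusted p = 0.272 in edgeR and 0.00974 in DESeq2), depends on the prior count added by the fit and ran from -7.73 to -4.62 as each library was left out.

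Zfp37 (chr4:61850574-61869580), a gene known for its expression in testis and brain, had 7, 2 and 2 reads in OgaVav-Cre against 24, 73 and 36 in wildtype. The pooled level was 7.06% of wildtype (exact interval 3.44 to 13.1%), and the fitted log2 fold change was -3.79 (SE 0.753, adjusted p = 0.299 in edgeR and 0.000902 in DESeq2). The genotypes did not overlap, although wildtype replicate 2 held most of the wildtype reads. Only 0.883% of its exonic 50-base stretches occur again in the genome.

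Zfp583 (chr7:6267262-6282887) had 23, 40 and 54 reads in OgaVav-Cre against 99, 140 and 81 in wildtype. Zfp661 (chr2:127400398-127412830) had 63, 72 and 105 against 133, 211 and 215. Neither overlapped between genotypes, both carry the KRAB pattern, and none of their exonic 50-base stretches is repeated in the genome. Their means were 1.52 ± 0.478 against 5.11 ± 1.96 CPM and 3.16 ± 0.583 against 8.76 ± 2.38 CPM, with log2 fold changes of -1.73 (SE 0.392, adjusted p = 0.382) and -1.47 (SE 0.284, adjusted p = 0.280) in edgeR.

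The remaining 3 were better covered and differed less. Zfp329 (chr7:13389127-13404209) had 661, 808 and 1033 reads in OgaVav-Cre against 1059, 1118 and 1414 in wildtype, which is 33.0 ± 4.28 against 55.8 ± 5.44 CPM. Zfp826 (chr19:61129743-61216743) had 956, 1019 and 1204 against 1277, 1524 and 1964 reads, or 42.2 ± 1.81 against 74.0 ± 12.4 CPM. Their log2 fold changes were -0.76 (SE 0.143) and -0.81 (SE 0.147), with an adjusted p of 0.272 for both in edgeR and of 0.0195 and 0.00786 in DESeq2, short of the fold cutoff. Zfp931 (chr2:175541310-175562648), with 352, 463 and 442 against 576, 564 and 585 reads and a log2 fold change of -0.69 (SE 0.145, adjusted p = 0.337), lies among near-identical copies. As much as 36.1% of its exonic 50-base stretches are repeated elsewhere, so its reads may include those of other loci.

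Fewer members were higher, and the 6 without overlap were Zfp462, Zfp119b, Zfp296, Zfp362, Zfp14 and Zfp609. Zfp462, a large protein with 33 matched fingers that associates with the histone methyltransferases Ehmt1 and Ehmt2, had 74, 129 and 65 reads in OgaVav-Cre against 28, 32 and 31 in wildtype. Its level was 3.59 ± 1.39 against 1.43 ± 0.201 CPM, a log2 fold change of 1.33 (SE 0.366, adjusted p = 0.412). All OgaVav-Cre values were higher, and they spread more than the wildtype values. Zfp119b had 123, 192 and 175 against 86, 99 and 72 reads (log2 fold change 0.67, SE 0.273, adjusted p = 0.454), with 27.6% of its 50-base stretches repeated. For Zfp296, a factor of pluripotent and germ cells, the values were 257, 239 and 249 against 149, 134 and 191 reads (log2 fold change 0.44, SE 0.192, adjusted p = 0.472). Zfp14, Zfp362 and Zfp609 differed by 0.38, 0.21 and 0.16 on the log2 scale. Without TMM factors, 2 members in all were higher without overlap. Zfp534 (1.08, SE 0.716) had 101, 48 and 21 against 9, 33 and 29 reads, with overlap, and 73.6% of its 50-base stretches are repeated.

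**Figure D3:**
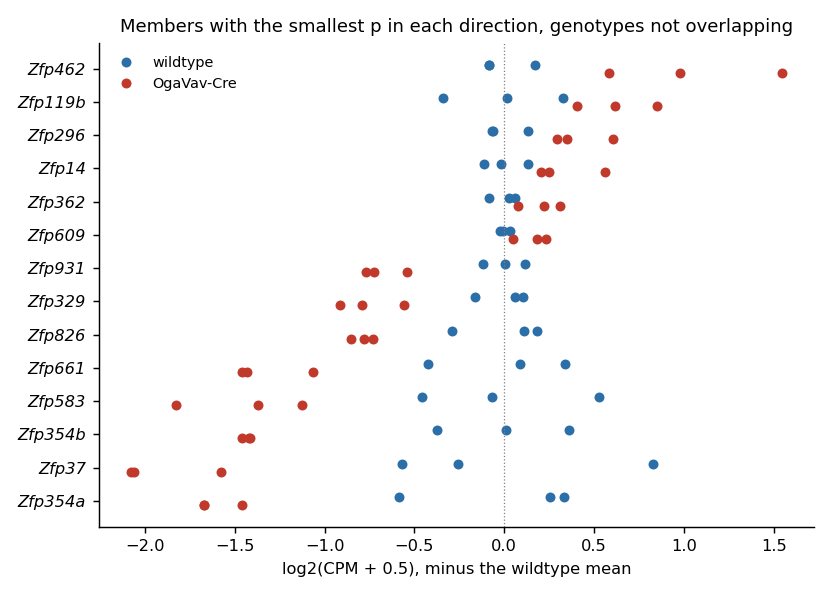
Level of 14 members in each library, as log2(CPM + 0.5) minus the wildtype mean of the gene (x axis), wildtype in blue and OgaVav-Cre in red, for the 8 members of smallest p below and the 6 above wildtype without overlap. The 6 higher members sit at the top with small differences apart from Zfp462, and the offset of 0.5 CPM compresses the values of Zfp354a, Zfp354b and Zfp37.

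Zfp354b and Zfp354a belong to a row of 5 members on chromosome 11 that runs from Zfp354c through Zfp879 and Zfp2 to Zfp354b and Zfp354a, chr11:50624587-50886301. Zfp354c (chr11:50624587-50641233) had 125, 168 and 178 reads in OgaVav-Cre against 209, 246 and 240 in wildtype, 6.23 ± 0.599 against 10.9 ± 1.62 CPM, without overlap (log2 fold change -0.81, SE 0.201, adjusted p = 0.391). Zfp879 had 15, 26 and 4 against 20, 34 and 19 reads (-0.93, SE 0.685), and Zfp2 had 156, 227 and 128 against 176, 206 and 214 reads (-0.44, SE 0.273). These last members overlapped between genotypes. All 5 had negative fold changes, with a median of -0.93, and 4 carry the KRAB pattern.

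Other loci of this stretch had few reads. Zfp454, between Zfp879 and Zfp2, had 6 reads in all, and Grm6, a glutamate receptor gene, had 73. AK043190, a transcript that overlaps Zfp2 on the other strand, had 72 reads in all. These were 9, 2 and 16 in OgaVav-Cre against 8, 26 and 11 in wildtype. Its log2 fold change was -1.01 (SE 0.795, adjusted p = 0.655 in edgeR), with overlap between genotypes. Adamts2, the next gene on the side of Zfp354c, had 22, 15 and 29 reads in OgaVav-Cre against 7, 12 and 19 in wildtype, a log2 fold change of 0.57 (SE 0.504, adjusted p = 0.687) with overlap between genotypes. Olfactory receptor genes between Zfp354b and Zfp354a had 0 reads.

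**Figure D4:**
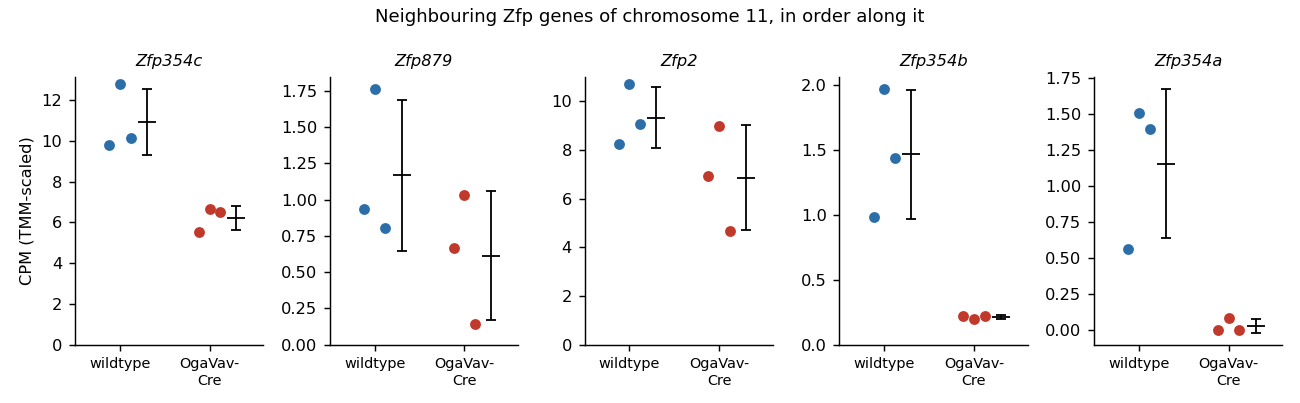
Level in CPM (y axes, each panel on its own linear scale) of the 5 neighbouring Zfp genes in each wildtype (blue) and OgaVav-Cre (red) library, with mean and SD over 3 libraries in black. Zfp354c, Zfp354b and Zfp354a show no overlap between genotypes, while Zfp879 and Zfp2 overlap.

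Lower levels were shared by most clusters. Within 250 kb of the next numbered Zfp locus, 209 members formed 48 clusters of 2 or more and 123 stood alone. The median log2 fold change was -0.24 for members in clusters and -0.10 for members alone. Of the 17 clusters with 4 or more members, 16 had a median below 0, and in 6 of them, with 38 members, every member was lower. The row on chromosome 11 is among these 6, and its members Zfp354a and Zfp354b passed the filter through wildtype alone. Chromosome 7 held 82 members (53 lower), chromosome 17 held 41 (35 lower) and chromosome 13 held 32 (28 lower).

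The stretch chr17:21520712-22593656, from Zfp677 to Zfp946, held 15 members, all with the KRAB pattern and all lower, with log2 fold changes from -0.63 to -0.14 and a median of -0.33. In 6 of the 15 the genotypes did not overlap, beside 9.97% of all loci lower without overlap. Zfp760 had the largest difference of the 15, with 901, 1359 and 1117 reads in OgaVav-Cre against 1340, 1373 and 1755 in wildtype, 44.8 ± 7.76 against 69.4 ± 5.93 CPM (log2 fold change -0.63, SE 0.151, adjusted p = 0.384). At the other end Zfp52, with 498, 803 and 849 against 632, 652 and 711 reads, overlapped between genotypes (-0.14, SE 0.172).

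On chromosome 9, chr9:20149580-20399638 held Zfp560, Zfp26, Zfp426, Zfp266 and Zfp846, and each of these 5 KRAB genes was lower without overlap (all loci 9.97%). The difference was small, from -0.58 for Zfp846, with 120, 111 and 149 against 139, 168 and 174 reads, to -0.22 for Zfp266, with 1901, 2407 and 2113 against 2135, 1928 and 2357 reads. The raw reads of Zfp266 overlap and its scaled levels, 85.5 ± 9.14 against 99.9 ± 0.186 CPM, do not, since the wildtype libraries held fewer reads. On chromosome 7, the 4 KRAB genes Zfp954, Zfp773, Zfp418 and Zfp772 were all lower, with a median of -0.51, led by Zfp773 with 145, 216 and 155 against 238, 306 and 321 reads (-0.98, SE 0.232, adjusted p = 0.384 in edgeR and 0.0429 in DESeq2).

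Not all clusters followed. The row from Zfp553 to Zfp646 on chromosome 7, with 10 members of which 4 carry the KRAB pattern, had 5 lower and 5 higher members and a median of 0.012. The row from Zfp180 to Zfp575, also on chromosome 7, had 6 of 11 lower and a median of -0.0081, and the KRAB pattern was found in none of its members. The largest cluster, 18 members from Zfp712 to Zfp273 on chromosome 13, had 15 lower and a median of -0.26, but the genotypes overlapped for each of its members.

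**Figure D5:**
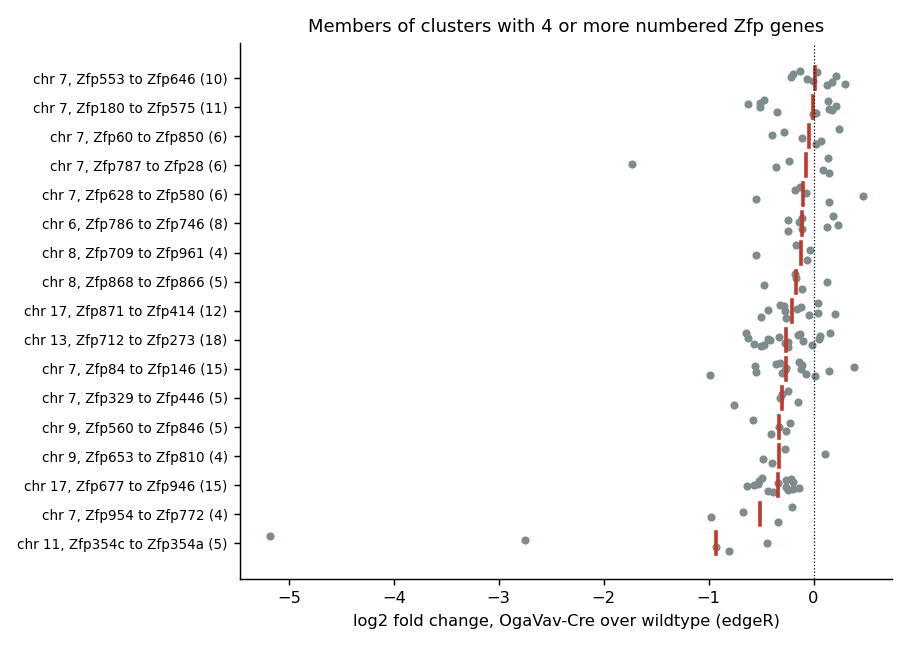
Log2 fold change of OgaVav-Cre over wildtype (x axis, edgeR) of each member (grey points) of the 17 clusters with 4 or more numbered Zfp genes, named by chromosome, first and last member and number of members, with the median in red. Medians run from -0.93 for the row on chromosome 11 to 0.012 for a row on chromosome 7, and 16 of 17 are below 0. In the row on chromosome 11, Zfp354a and Zfp354b passed the filter on low counts through wildtype alone.

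Members with a known role in imprinting or in silencing lay on both sides of wildtype, beside Zfp462 above. Zfp445, which keeps imprinted regions methylated, had 2732, 3277 and 3619 reads in OgaVav-Cre against 3436, 3099 and 4019 in wildtype, 128 ± 5.73 against 164 ± 5.27 CPM, without overlap after scaling (log2 fold change -0.36, SE 0.109, adjusted p = 0.412). Its partner in imprinting, Zfp57, went the other way, with 244, 375 and 147 against 96, 147 and 155 reads and overlap between genotypes (0.73, SE 0.384, adjusted p = 0.526). Zfp809, which silences retroviral sequences, had 457, 626 and 848 against 666, 742 and 854 reads, 25.3 ± 5.36 against 35.3 ± 3.72 CPM (-0.48, SE 0.184, adjusted p = 0.445). Zfp568, a repressor of a placental Igf2 transcript, had 539, 467 and 552 against 602, 417 and 593 reads, with overlap (-0.26, SE 0.167).

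Among members that act on RNA or in mitosis, Zfp207 (BuGZ, a spindle assembly factor) had 288 ± 22.8 against 362 ± 22.8 CPM, without overlap (-0.33, SE 0.126, adjusted p = 0.445). Zfp326, part of a complex that couples splicing to RNA polymerase II, had 33.5 ± 3.88 against 42.4 ± 0.919 CPM, also without overlap (-0.34, SE 0.131, adjusted p = 0.446). Zfp598, the ligase that marks collided ribosomes, differed by -0.20 (SE 0.138) and Zfp622, a factor of 60S subunit maturation, by 0.11 (SE 0.119), both with overlap. In all, 29 of the 32 genes listed for a stated role were members, 18 lower and 11 higher with a median of -0.10. At an unadjusted p below 0.05, 5 of them were lower and 1 higher, beside 6.27 and 4.38% of all loci. Zfp42 had 0 reads, Zfp423 had 27, and Zfp638 was not listed under that symbol.

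Members tied to blood cells followed. Zfp521, a cofactor of haematopoietic progenitors, had 505, 651 and 449 reads in OgaVav-Cre against 439, 550 and 475 in wildtype (-0.10, SE 0.221). Zfp318, which sets IgM and IgD splicing in B cells, had 659, 917 and 2187 against 840, 705 and 1604 reads. Replicate 3 of both genotypes was highest, these are also the libraries with the highest summed B cell markers (1481 and 1027 CPM), and the log2 fold change was 0.015 (SE 0.400). Zfp384, a fusion partner in acute leukaemia, differed by -0.16 (SE 0.125), and Zfp91, a ubiquitin ligase, by -0.010 (SE 0.114).

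Levels between genes were compared per kb of locus. They ran from 0.1 CPM per kb for Zfp711 to 55.9 for Zfp706, a small protein with 1 matched finger, and the median was 4.22. After Zfp706 came Zfp740 (27.3), Zfp422 (27.2), Zfp146 (23.8), Zfp445 (23.6) and Zfp207 (21.7). Of these 6, Zfp445 and Zfp207 were lower without overlap, and the other 4 overlapped between genotypes, with log2 fold changes from -0.14 to 0.20. By the wildtype level alone, Zfp354a was in place 328 of 332 (0.267 CPM per kb), Zfp37 in place 327 (0.290) and Zfp354b in place 310 (0.5003), and the 13 members with a log2 fold change under -1 lay in places 265 to 328.

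The co-repressors that KRAB proteins use were measured too. Of 35 listed genes 32 were tested, 14 lower and 18 higher, with a median of 0.017. In each direction 1 had an unadjusted p below 0.05, beside 6.27% of all loci lower and 4.38% higher. Those of smallest p were H3f3b, a gene of histone H3.3, with 14918, 16251 and 17507 reads in OgaVav-Cre against 11152, 8342 and 9835 in wildtype (0.50, SE 0.137, adjusted p = 0.411), Morc2a, a silencing ATPase (-0.28, SE 0.103, adjusted p = 0.439), and Atrx, a chromatin remodeller (-0.18, SE 0.112, adjusted p = 0.587). Trim28 itself differed by 0.13 (SE 0.149) and Setdb1 by -0.10 (SE 0.112).

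Promoter sequences from RefSeq (GRCm38.p6, 250 bases before to 50 after a start) were matched to 270 members by gene number. Zfp354a and Zfp354c had no entry, so their promoters were not searched. A stretch shared by Zfp354b, Zfp879 and Zfp2 was noticed in the matched promoters after the expression values were known. It reads ACTACA, any 2 bases, then TCCC, and was searched on both strands. It is the core of the site known for Zfp143, an activator of small nuclear RNA genes that is itself a member. It occurred in 50 of the 270 members (18.5%), beside 2.08% of the 27025 genes in the promoter table. Zfp354b, Zfp879 and Zfp2, in which it was noticed, are among the 50. The 27025 genes were not selected on reads, whereas the members were, so the 2 sets are unlike, also for the motifs below. For printing, 23 members were looked up, namely the row on chromosome 11, those of smallest p without overlap in each direction and the most abundant. Of these, 17 had a promoter entry and 6 held the stretch, shown in capitals, lower and higher ones alike. Members named only for a role or another cluster were not looked up for printing.
Zfp354b: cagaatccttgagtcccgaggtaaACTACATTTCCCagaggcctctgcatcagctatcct
Zfp879: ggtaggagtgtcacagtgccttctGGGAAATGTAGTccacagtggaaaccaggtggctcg
Zfp2: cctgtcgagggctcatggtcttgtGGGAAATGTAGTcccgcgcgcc
Zfp661: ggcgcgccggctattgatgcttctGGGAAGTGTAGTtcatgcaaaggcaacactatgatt
Zfp14: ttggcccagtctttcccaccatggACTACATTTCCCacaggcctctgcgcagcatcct
Zfp146: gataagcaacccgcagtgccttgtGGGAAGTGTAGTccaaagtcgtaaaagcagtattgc
On GRCm38.p6 they lie on the minus strand at chr11:50931658-50931717, chr11:50841577-50841636, chr11:50916157-50916202, chr2:127584722-127584781, chr7:30051377-30051434 and chr7:30169836-30169895. The stretch begins 58, 60, 2, 80, 14 and 130 bases before the start of the gene. The median log2 fold change was -0.24 for the 50 members with it, 41 of them lower, and -0.19 for the 220 without, 173 of them lower. Zfp143 had 430, 394 and 642 reads in OgaVav-Cre against 430, 314 and 468 in wildtype, with overlap (0.046, SE 0.191), a difference that turns negative (-0.071) without TMM factors. Among other motifs searched on both strands, CCGGAA occurred in 40% of the members' promoters beside 16.7% of all, CCAAT in 50.4 beside 41.1%, GGGCGG in 50.4 beside 38.2% and CACGTG in 8.52 beside 8.09%.

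The values were also set against near-identical copies and overlapping loci. Of the members matched to transcripts, 189 had under 1% of their exonic 50-base stretches repeated in the genome, and their median was -0.19 with 144 lower, and 53 had 10% or more, with a median of -0.19 and 44 lower. Another locus overlapped 164 members, 97 of them on the opposite strand, and the kit does not mark strand. The median of the 168 members without an overlap was -0.24, with 134 lower, and that of the 164 with one was -0.14, with 123 lower.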

How the data were processed

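Poly(A) RNA of LSK cells was sequenced by the authors as single-end reads of 50 bases, aligned to mm9 and summarised per locus with Genomatix, whose versions are not given in the sources used here (the submitters' processing notes name CASAVA 1.8.2). The deposited table holds raw counts per locus, and RPKM that the authors derived from them. Its fold changes and p-values of the authors' own comparison were not used. Groups follow the labels, and 1 library stands for 1 mouse. Counts of all loci were fitted with edgeR 4.0.16 (TMM, filterByExpr by genotype, quasi-likelihood test, Benjamini-Hochberg over 22032 loci). All 332 members passed the filter, 3 of them (Zfp354a, Zfp354b and Zfp37) through wildtype alone. DESeq2 1.42.0, limma 3.58.1 on counts and on log2(RPKM + 0.1), other scalings and filters, a replicate block and each library left out were alternatives. Fingers (C, 2 to 4 residues, C, 12 residues, H, 3 to 5 residues, H), the KRAB pattern (W, L, L, Y and V at fixed spacing) and repeated 50-base stretches came from GENCODE vM1 on NCBIM37, since no protein table was used. SE is the standard error of the log2 fold change. Intervals and floors (3 reads) cover counting error only.

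Genes were named by rule: the Zfp354 genes, the 8 members of smallest p without overlap in each direction (6 were higher), the 6 most abundant, clusters of 4 or more, members with a stated role and 3 co-repressors. Members, lists and tests were chosen with earlier results of these data known.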

Additional observations from a re-analysis of the deposited data

How the results depend on the processing

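The median over the members stayed below 0, and more members were lower than higher, under every alternative run. Without TMM factors, the median moved to -0.30, 93 members were lower and 1 higher at an unadjusted p below 0.05, beside 10.04% of all loci lower, and 2 were higher without overlap, beside 3.75% of all loci. DESeq2 called 5 members and edgeR 0 under every setting. On RPKM 3 members were higher without overlap, beside 4.97% of all loci. Leaving out each library gave medians from -0.23 to -0.13. At an unadjusted p below 0.05, 27 to 64 members were then lower and 1 to 6 higher (all loci 3.20 to 8.09% lower). Without overlap, 90 to 124 were lower and 11 to 23 higher. Fewer libraries overlap less often by construction, and of all loci 12.9 to 18.2% were then lower and 10.3 to 17.7% higher without overlap. Among members with under 1% repeated stretches, 34 were lower and 1 higher at that p, and 50 lower and 5 higher without overlap. Among members without an overlapping locus, 31 were lower and 1 higher at that p, and 40 lower and 3 higher without overlap. For all loci and libraries the shares were 6.27 and 4.38% at that p, and 9.97 and 7.5% without overlap. Both subsets, like the 329 members that reached 10 reads in both genotypes, were chosen after seeing the data and hold fewer members by construction. Otherwise the cause was not tested. A read limit of 120, summed loci and distances of 100 or 500 kb stayed within 1.5 times. A read limit of 30 gave values identical to those at 60 and so is no separate check.

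Replicate numbers were shared between genotypes, but same-numbered libraries did not all deviate together (correlations of -0.089, 0.31 and 0.38) and OgaVav-Cre replicate 1 was closest to wildtype replicate 2, so the numbers were not taken as pairs. With the replicate number as a block the median was -0.20 and 0 members were called. At an unadjusted p below 0.05, 62 members were lower and 2 higher, beside 6.61% of all loci lower.

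Of 668 values of 48 named members, 626 kept direction and call, 5 were newly called and 37, of 13 members near 0, turned in sign. Without TMM factors these were Zfp106 (-0.031), Zfp143 (-0.071), Zfp217 (-0.0086), Zfp318 (-0.090), Zfp335 (-0.066), Zfp532 (-0.043), Zfp622 (-0.013) and Zfp687 (-0.11). On RPKM they were Zfp143 (-0.034), Zfp318 (-0.13), Zfp335 (-0.016) and Zfp687 (-0.050), with limma-voom and with the replicate block Zfp318 (-0.066 in both), and with RLE size factors and DESeq2 Zfp91 (0.0039 and 0.0048). With a library left out, Zfp143 ran from -0.11 to 0.19, Zfp148 from -0.14 to 0.038, Zfp161 from -0.11 to 0.010, Zfp318 from -0.55 to 0.35, Zfp335 from -0.053 to 0.15, Zfp422 from -0.092 to 0.075, Zfp521 from -0.25 to 0.085, Zfp532 from -0.31 to 0.47, Zfp687 from -0.036 to 0.079 and Zfp91 from -0.042 to 0.039.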

Other observations

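Genes with the KRAB pattern under other symbols lay lower too. Of 80 such loci 68 were tested, 59 lower and 9 higher, with a median log2 fold change of -0.38. At an unadjusted p below 0.05, 25 were lower and 0 higher, beside 6.27 and 4.38% of all loci. Without overlap, 30 were lower and 0 higher, beside 9.97 and 7.5% of all loci. These loci were chosen after the values of the numbered Zfp genes were seen. The median over them of the log2 level relative to the wildtype mean was -0.58, -0.19 and -0.41 in the OgaVav-Cre libraries, replicates 1 to 3, against -0.11, 0.13 and -0.032 in wildtype. Loci on chromosome 2 make up 26 of the 68, all 26 of them lower with a median of -0.73. How alike their sequences are was not measured. Several are listed more than once over the same reads, so the counts above include some reads more than once. Gm14440 had 241, 288 and 293 reads in OgaVav-Cre against 407, 469 and 542 in wildtype, and Gm14288, at the same place, had 241, 290 and 295 against 407, 470 and 542. Outside chromosome 2, 33 of 42 were lower, with a median of -0.26.

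Other zinc finger families were also chosen after values were seen. Zbtb genes, which join fingers to a BTB domain, had a median of -0.14 with 27 of 35 lower, Zscan and Zkscan genes a median of -0.18 with 11 of 16 lower (-0.28 without a filter on low counts and -0.27 in DESeq2), and Zc3h genes, whose fingers bind RNA, a median of -0.0036 with 10 of 19 lower (-0.13 without TMM factors, where the median of all loci is -0.11). Ribosomal protein genes had a median of 0.31 with 66 of 75 higher, and of 0.20 without TMM factors. By locus length, the median of all loci was 0.13 in the shortest of 4 classes of like size (up to 1583 bases) and -0.010, -0.017 and -0.043 in the others, in order of length, and 7 members lie in the shortest class.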
